A study of Homo sapiens with 15 samples.

Results

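The transcripts of glycolysis, gluconeogenesis and glucose transport were followed in HepG2 cells, an established human hepatocellular carcinoma line, after 72 h with one of a pair of chlorinated organophosphate flame retardants. The set holds 40 genes, listed by name with earlier results of these data known, so counts over it are not independent of them. They are sugar carriers, the enzymes of each glycolytic step, and the bifunctional enzymes that set fructose 2,6-bisphosphate. The lactate branch, the enzymes specific to gluconeogenesis, and a subunit and kinases of pyruvate dehydrogenase are also included. All 40 were found by name among the 57773 genes of each library's table, and 38 had enough reads to be tested. LDHB, which encodes the B subunit of lactate dehydrogenase, had 0 exon reads in all 15 libraries, and FBP1, fructose bisphosphatase of gluconeogenesis, had at most 4 reads in any library.

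The 5 groups held 3 libraries each. Control cells received the solvent dimethyl sulfoxide (DMSO) alone at 0.1%. The others received tris(2-chloroethyl) phosphate (TCEP) at 25 or 250 µM, or tris(2-chloroisopropyl) phosphate (TCIPP) at 2.5 or 25 µM, so that the concentrations of each compound lie 10-fold apart and the compounds share 25 µM. Every group is the same cell line, and each triplicate came from separately seeded, treated and extracted cultures, per the labels' protocols. The comparisons ask how each concentration differed from solvent, how the higher concentration differed from the lower one, and how the compounds differed at the concentration they share.

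Glycolysis splits glucose into pyruvate in the cytosol, and tumour cells reduce much of that pyruvate to lactate and export it. Hepatocytes can run the path in reverse, from pyruvate or amino acids to glucose, through enzymes that glycolysis lacks. Hypoxia-inducible factors (HIF) are known to bind a short core sequence near many glycolytic genes and to raise their transcription when oxygen is low, and in liver tumours the hepatocyte isozymes are commonly replaced by HK2, ALDOA and PKM.

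The libraries held 5.35 to 26.8 megareads on exons (median 8.89). Levels are given as CPM, the exon reads of a gene per megaread of its library, and 3 reads correspond to 0.112 to 0.56 CPM. HepG2 identity was visible in each library: the 10 hepatocyte and HepG2 markers, ALB and AFP among them, summed to 47960.0 to 59090.0 CPM, while the 7 fibroblast and stellate markers summed to 32.3 to 54.4 CPM, mostly from ACTA2 and PDGFRB, with COL1A2, LUM and DCN at 0 throughout. The cholangiocyte list summed to 515 to 598 CPM and the endothelial list to 0.998 to 2.65 CPM. The leukocyte list summed to 3978 to 5374 CPM, nearly all from LYZ. The share of reads in introns was 8.68 to 9.1% with DMSO, 8.05 to 8.59% at 25 µM TCEP, 8.31 to 8.76% at 250 µM TCEP, 7.82 to 8.67% at 2.5 µM TCIPP and 8.6 to 9.55% at 25 µM TCIPP. The share in mitochondrially encoded genes was 6.27 to 7.68% with DMSO, 5.91 to 6.54% and 6.47 to 6.79% at the lower and higher TCEP concentration, and 5.68 to 6.37% and 6.7 to 7.23% at the lower and higher TCIPP concentration. The mitochondrial share at 2.5 µM TCIPP lay below that at 25 µM, the shares at the TCEP concentrations overlapped, and the part these shares have in the results below was not tested. In bulk RNA, fewer cells with a transcript and less of it per cell cannot be told apart.

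The sequences before the start sites of the 3 genes that edgeR called between concentrations with no block, PGK1, ENO1 and PFKFB4, are shown here with the core letters to which HIF is known to bind. LDHA is added because it held the most ACGTG of the 36 members in the table, although edgeR called it over both compounds with the replicate number as a block (adjusted p = 0.0023) and not without it (adjusted p = 0.338). Each is the 250 bases upstream of the RefSeq start (promoter table of assembly GRCh38.p14), read 5′ to 3′ on the gene's strand, placed on hg19 by an exact match that occurred 1 time in the genome. Capitals mark ACGTG and GCGTG on either strand, so that CACGT and CACGC are the same motifs read on the other strand, and CACGTG holds ACGTG on both. PGK1, phosphoglycerate kinase, lies at chrX:77359495-77359744 on the plus strand. ENO1, enolase, lies at chr1:8938746-8938995 on the minus strand, PFKFB4, a bifunctional phosphofructokinase and bisphosphatase, at chr3:48594237-48594486 on the minus strand, and LDHA, the A subunit of lactate dehydrogenase, at chr11:18415860-18416109 on the plus strand. The LDHA window spans the 5′ end of the gene in the deposited tables (18415935 to 18429972 on chromosome 11), and the other 3 windows lie inside the longer gene models used there (77320685 to 77384793 on chromosome X for PGK1, 8921061 to 8939308 on chromosome 1 for ENO1, 48555117 to 48599448 on chromosome 3 for PFKFB4).
PGK1: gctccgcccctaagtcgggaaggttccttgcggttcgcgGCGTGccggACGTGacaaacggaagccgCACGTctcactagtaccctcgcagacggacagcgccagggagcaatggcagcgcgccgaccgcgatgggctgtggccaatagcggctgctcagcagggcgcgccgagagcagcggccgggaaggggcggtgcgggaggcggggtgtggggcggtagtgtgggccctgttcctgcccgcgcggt
ENO1: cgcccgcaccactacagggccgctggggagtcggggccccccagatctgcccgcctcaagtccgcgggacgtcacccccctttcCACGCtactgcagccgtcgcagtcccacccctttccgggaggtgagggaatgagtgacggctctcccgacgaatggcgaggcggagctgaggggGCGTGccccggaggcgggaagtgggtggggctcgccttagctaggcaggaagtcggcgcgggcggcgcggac
PFKFB4: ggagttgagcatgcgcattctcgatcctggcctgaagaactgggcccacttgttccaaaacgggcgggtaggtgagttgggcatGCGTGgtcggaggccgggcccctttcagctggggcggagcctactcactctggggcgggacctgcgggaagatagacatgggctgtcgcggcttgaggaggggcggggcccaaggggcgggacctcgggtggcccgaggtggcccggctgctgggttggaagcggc
LDHA: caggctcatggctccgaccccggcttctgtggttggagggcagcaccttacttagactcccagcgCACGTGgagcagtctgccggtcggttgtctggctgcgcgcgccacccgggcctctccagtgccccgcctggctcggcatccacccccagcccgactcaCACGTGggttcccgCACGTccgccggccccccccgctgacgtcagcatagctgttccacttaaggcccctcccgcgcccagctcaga
PGK1 held 2 ACGTG and 1 GCGTG, ENO1 held 2 GCGTG, PFKFB4 held 1 GCGTG, and LDHA held 5 ACGTG with each CACGTG counted on both strands. Of the 36 members with an entry in the table, 21 (58.3%) held either motif in these 250 bases, 13 (36.1%) held ACGTG and 13 (36.1%) held GCGTG. Over all 35116 promoters of the table the shares were 43.2%, 18.5% and 32.2%, and the median GC content was 68.4% in the members against 58% in all. A match is a description of the letters and not evidence of binding. SLC2A1, SLC2A2, TPI1, PKM, SLC16A3 and PDK1, which were also called lower at the higher concentrations with the block, held neither motif in this window. SLC2A3, PFKFB2, SLC16A1 and PCK1 had no entry.

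Under solvent, the levels of the members spanned over 3 orders of magnitude on a scale per exon length (RPKM, reads per kilobase of exon per megaread). GAPDH, which oxidises glyceraldehyde phosphate, stood first at a mean of 1152 RPKM (1070.0 to 1312 over the libraries), then ENO1 at 581 (553 to 609), LDHA at 402 (377 to 414), ALDOA, the muscle-type aldolase, at 274 (258 to 298) and the triose isomerase TPI1 at 251 (248 to 254). These first 5 did not overlap between neighbours in the order. PGK1 (170.0 RPKM), the transporter SLC2A1 (166) and the mutase PGAM1 (148) followed, and each of the first 2 of these overlapped the next one, so that their order is not resolved. PKM (122 RPKM) and SLC2A3 (112) also overlapped.

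Among the members, each of these steps had a leading isozyme. HK2 carried 97.5% ± 0.32 (SD, n = 3) of the summed RPKM of HK1 and HK2, ALDOA 95.2% ± 0.81 of that of ALDOA and ALDOC, ENO1 96.3% ± 0.34 of enolase and PKM 97.8% ± 0.21 of pyruvate kinase under DMSO. PFKL, the liver-type phosphofructokinase, carried 86.5% ± 2.2 against 11.9% ± 2.2 for the platelet type PFKP and 1.6% ± 0.2 for the muscle type PFKM. PKLR, the pyruvate kinase of liver and red cells, was at 7.67 ± 0.755 CPM under DMSO. HKDC1, a hexokinase outside the 40 members, was at 6.15 RPKM under DMSO against 1.96 for HK1, and is not in the share of HK2. Across all 15 libraries HK2 stayed between 96.4% and 98.9% of its pair, ALDOA between 94.3% and 95.9% of its pair and PKM between 97.5% and 98.6% of pyruvate kinase. Unique reads were 25.7% for PGAM1, 51.1% for PCK2, 56.7% for ALDOC, 72.5% for PDK2, 78% for GPI, 78.7% for GAPDH and 79.7% for SLC16A3, so reads of these genes may be shared with near-identical copies.

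**Figure D1:**
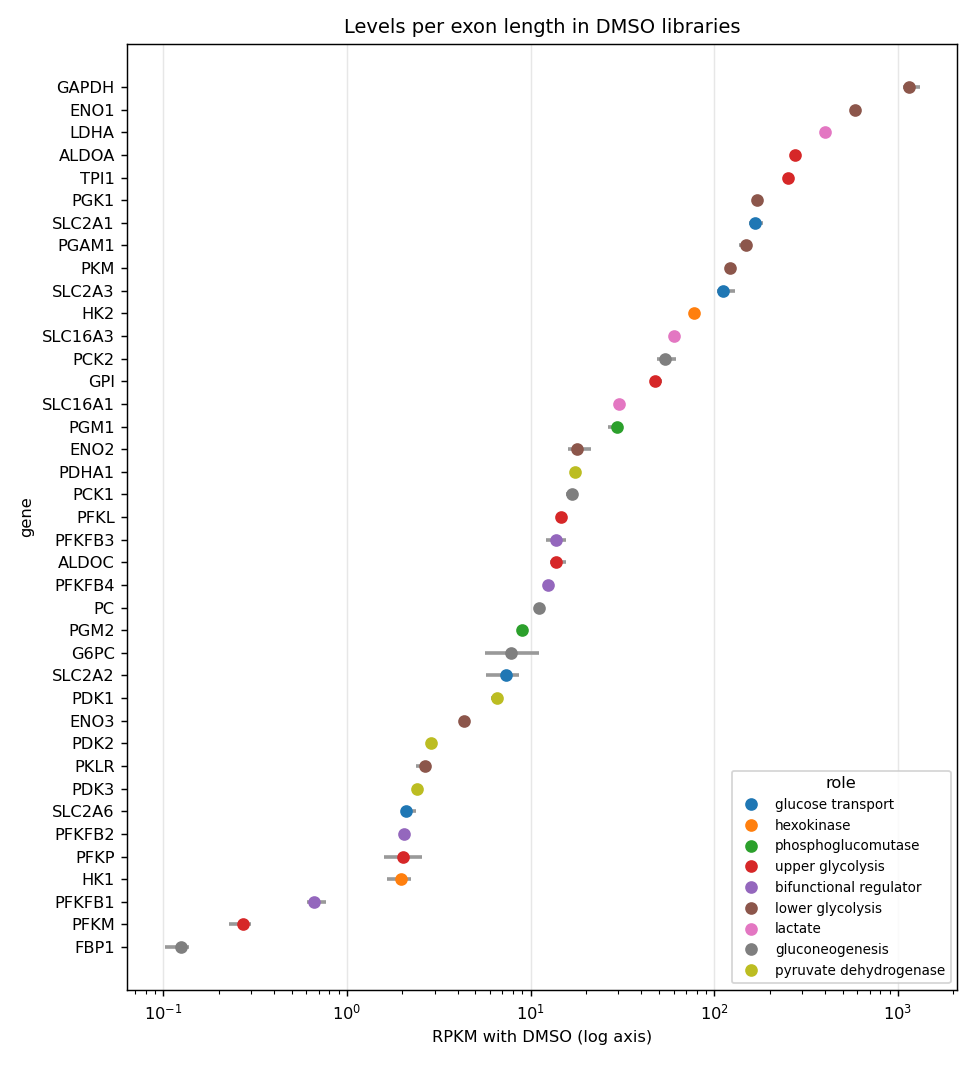
Mean RPKM of the 39 members with any read under DMSO, on a log axis, coloured by role, with bars from the lowest to the highest of 3 libraries. GAPDH (1152 RPKM) and ENO1 (581) lead, and PFKM (0.27) and FBP1 (0.125) stand last.

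With the lower concentration of either compound, most members lay above solvent, and at the higher concentration they lay near it. At 25 µM TCEP, 26 members had a log2 fold change above 0 and 12 below, with a median of 0.13 against 0 over all genes tested. At 2.5 µM TCIPP, 29 lay above 0 and 9 below, with a median of 0.21 against -0.004. At 250 µM TCEP the median was 0.012, and at 25 µM TCIPP it was 0.031, against 0.002 and -0.002 over all genes. The 4 comparisons share the DMSO libraries, so they are not independent of each other.

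No single member passed edgeR's quasi-likelihood test against DMSO after adjustment over all 12567 genes. At 25 µM TCEP, 0 of 38 members were called (0% of all genes), while 15 members had an unadjusted p under 0.05 (15.2% of all genes), DESeq2 called 3 members (1.1% of all genes) and limma-voom called 0 (0.0318%). At 2.5 µM TCIPP, 0 members were called (0.0955% of all genes, 12 genes), 18 had an unadjusted p under 0.05 (13.9% of all genes), DESeq2 called 11 (1.89%) and limma-voom 4 (0.828%). The smallest adjusted p with edgeR was 0.133 for PGK1 at 25 µM TCEP and 0.0544 for GAPDH at 2.5 µM TCIPP. At 250 µM TCEP edgeR called 0 members (0%), 2 had an unadjusted p under 0.05 (5.2%), DESeq2 called 1 (0.111%) and limma-voom 0 (0%). At 25 µM TCIPP edgeR called 0 (0.00796%), 2 had an unadjusted p under 0.05 (6.36%), and DESeq2 (0.239%) and limma-voom (0.00796%) called 0.

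By library, 12 members lay above every DMSO library in all 3 cultures at 25 µM TCEP, against 10.9% of all genes, and 3 lay below, against 11.7%. At 2.5 µM TCIPP 15 members lay above against 8.58% of all genes and 2 below against 8.22%. At 250 µM TCEP 2 lay above (6.77% of all genes) and 1 below (4.44%), and at 25 µM TCIPP 2 lay above (4.97%) and 0 below (4.23%). The summed reads of the 18 glycolytic enzymes took 1.5 to 1.61% of exon reads with DMSO, 1.7 to 1.93% at 25 µM TCEP and 1.79 to 2.02% at 2.5 µM TCIPP, with no overlap. They took 1.53 to 1.67% at 250 µM TCEP and 1.55 to 1.71% at 25 µM TCIPP, which overlapped DMSO.

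**Figure D2:**
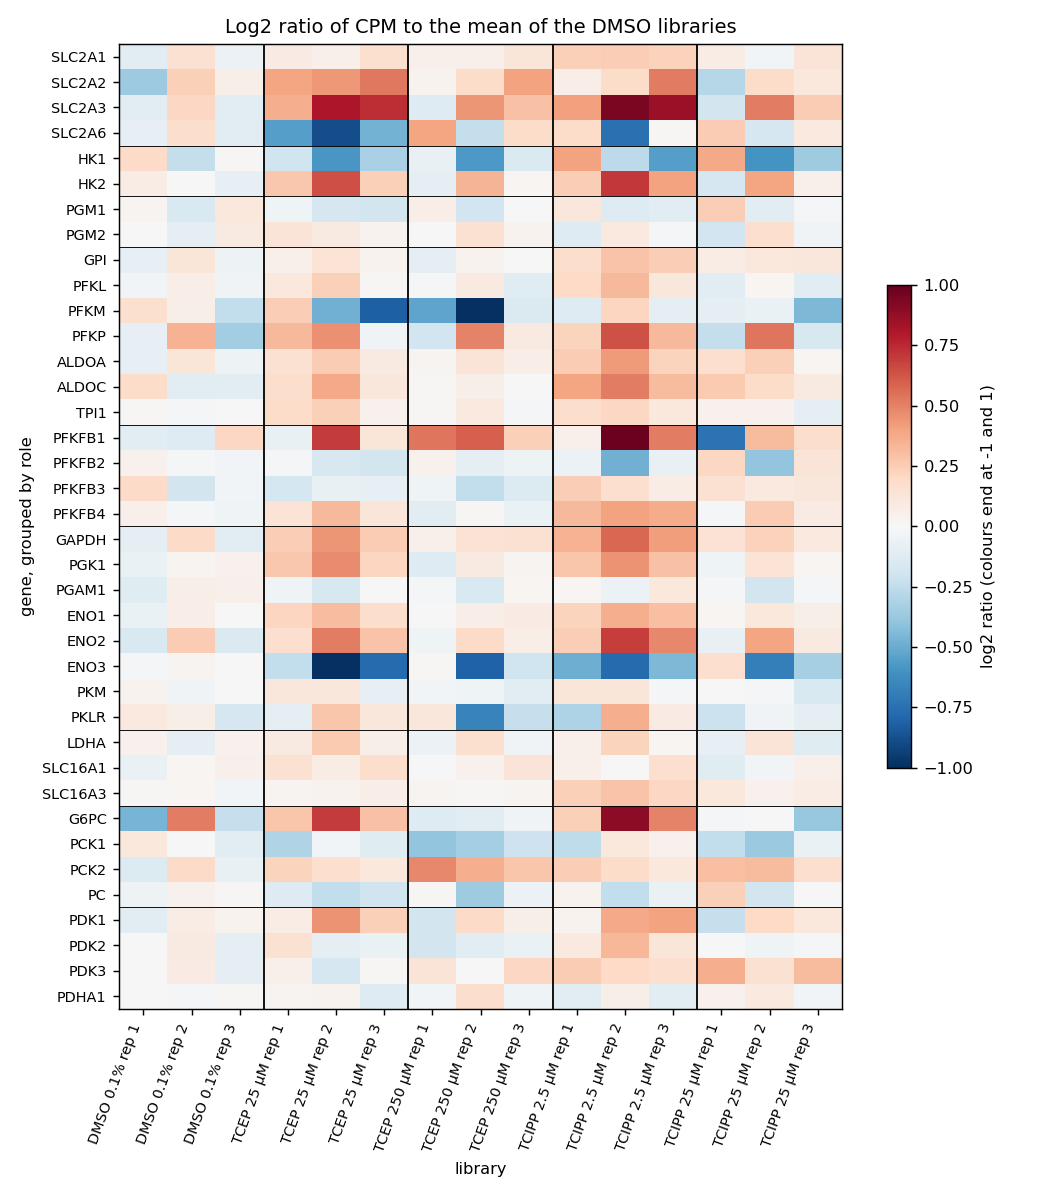
Log2 ratio of CPM in each of 15 libraries to the mean of the DMSO libraries, for the 38 members tested, grouped by role. Most rows of the glycolytic enzymes are red at 25 µM TCEP and 2.5 µM TCIPP and pale at the higher concentrations, and SLC2A6 and ENO3 are blue in the 3 libraries at 25 µM TCEP.

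The step from the lower to the higher concentration was the comparison in which members passed. Over both compounds, 6 libraries at the higher against 6 at the lower concentration, edgeR called 3 members lower (88 genes, 0.7% of all, were called lower) and 0 higher (49 genes, 0.39%), with a member median of -0.15 against 0.002 over all genes. The 3 were PGK1, ENO1 and PFKFB4. An unadjusted p under 0.05 was found in 24 members (16.3% of all genes), DESeq2 called 9 (2.75%) and limma-voom 5 (1.5%), and 4 members lay lower without overlap (0.684% of all genes) and 0 higher (0.875%). Within 1 compound, edgeR called 0 members for TCEP (0% of all genes) and 0 for TCIPP (0%). For these steps an unadjusted p under 0.05 was found in 9 and 14 members (7.16% and 10.8% of all genes), DESeq2 called 1 and 3 (0.111% and 0.493% of all genes), and limma-voom 0 and 0 (0% of all genes).

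The replicate numbers of the 12 treated libraries marked libraries that deviated together. The same comparisons were therefore also fitted with the replicate number as a block, on the treated libraries alone. This fit was not among the planned settings and rests on correlations seen in these same data. The DMSO libraries are left out of that fit. It called 12 members lower and 2 higher between 250 and 25 µM TCEP, where 2.49% of 12510 genes were called lower and 1.95% higher. Between 25 and 2.5 µM TCIPP it called 19 lower and 0 higher, where 4.26% and 3.32% of genes were. Over both compounds it called 21 lower and 3 higher, where 7.77% and 6.65% of genes were. SLC2A3, HK2, PFKL, TPI1, PFKFB4, GAPDH, PGK1, ENO1, ENO2, LDHA, G6PC and PDK1 were called lower for each compound. These are 12 of the 14 called for TCEP and 12 of the 19 called for TCIPP. The overlap among all genes called lower was not counted, so this overlap does not show a trait of the members. The calls for both compounds also come from the same fit and block, so they are not independent.

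By library, 8 members were lower at 250 than at 25 µM TCEP without overlap (6.17% of all genes) and 2 higher (9.31%). For TCIPP 12 were lower at 25 than at 2.5 µM (6.64% of all genes) and 0 higher (6.16%). The number of calls depended on the fit. Without a filter on low counts edgeR called 8 members at 25 µM TCEP (2.81% of 22008 genes), 1 at 250 µM TCEP (0.227%), 11 at 2.5 µM TCIPP (2.51%) and 0 at 25 µM TCIPP (0.364%), each against DMSO. It called 5 between the TCEP concentrations (0.732%), 6 between the TCIPP concentrations (1.57%), 6 for TCIPP against TCEP at 25 µM (3.44%) and 14 over both compounds (3.31%). A block over all 15 libraries, although same-numbered treated and control libraries did not all correlate over 0.1, called 11 at 25 µM TCEP (8.25% of 12567 genes), 1 at 250 µM TCEP (0.271%), 17 at 2.5 µM TCIPP (7.49%) and 0 at 25 µM TCIPP (0.374%) against DMSO. It called 7 and 11 members between the concentrations of TCEP (1.47%) and TCIPP (3.85%), 10 for TCIPP against TCEP at 25 µM (8.75%) and 18 over both compounds (8.78%).

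**Figure D3:**
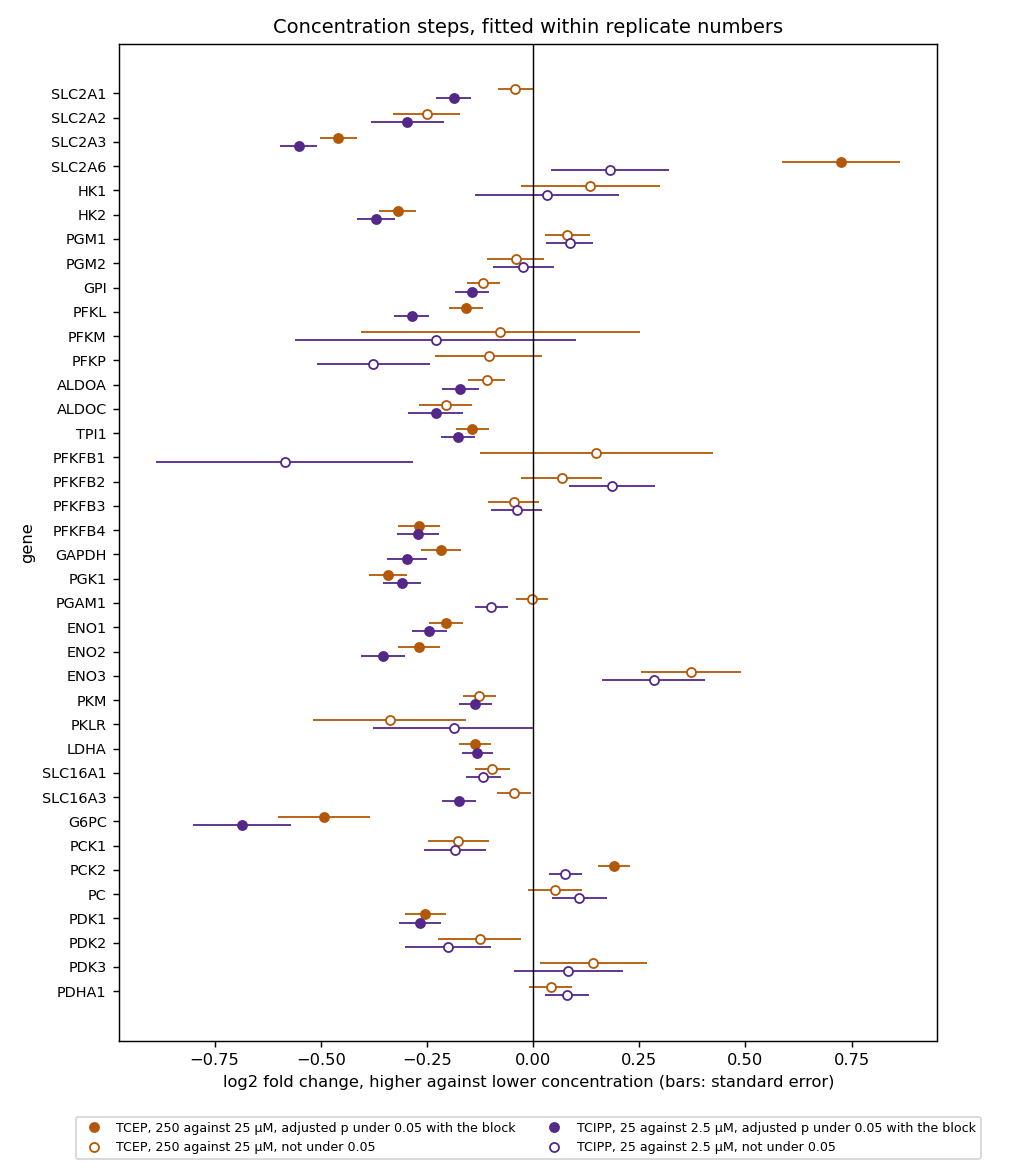
Log2 fold change of the higher against the lower concentration with its standard error, for TCEP (orange) and TCIPP (purple), from the fit with the replicate number as a block on 12 treated libraries. Filled points have an adjusted p under 0.05, and 12 members are filled to the left of 0 for both compounds.

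Among the glucose carriers, SLC2A3 (GLUT3), a high-affinity transporter, had the largest log2 fold change at both lower concentrations. Its DMSO libraries read 698, 871 and 701 CPM in replicates 1, 2 and 3, and those at 2.5 µM TCIPP read 1006, 1451 and 1374. At 25 µM TCEP it read 975, 1326 and 1260.0 CPM. Both lower concentrations lay above every control culture, by 0.66 ± 0.181 and 0.76 ± 0.181 on the log2 scale (log2 fold change ± standard error), with adjusted p = 0.136 and 0.0772. At 250 µM TCEP the libraries read 691, 1025 and 926 CPM and at 25 µM TCIPP 666, 1081 and 900.2, and both groups overlapped the controls. Within replicate numbers the step was -0.46 ± 0.044 for TCEP (adjusted p = 2.33e-05) and -0.55 ± 0.044 for TCIPP (adjusted p = 2.29e-06), while the fit with no block gave adjusted p = 0.68 and 0.291. The share of SLC2A3 in the summed RPKM of the 4 carriers ran from 38 to 39.7% with DMSO, 43.6 to 51.7% at 25 µM TCEP and 41.9 to 50.9% at 2.5 µM TCIPP. SLC2A14, a near-copy of SLC2A3, lay at 17.9 ± 1.75 CPM with DMSO and 27.4 ± 4.08 and 27.5 ± 6.25 CPM at 25 µM TCEP and 2.5 µM TCIPP, and 92% of the SLC2A3 reads were unique.

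SLC2A1 (GLUT1), the basal glucose transporter, read 712, 852.5 and 738 CPM with DMSO and 906.5, 912 and 900.1 CPM at 2.5 µM TCIPP. The latter lay above every control, by 0.25 ± 0.068 (adjusted p = 0.118), and its step down to 25 µM TCIPP was -0.19 ± 0.041 with the block (adjusted p = 0.0102). With no block edgeR gave this TCIPP step adjusted p = 0.335. For TCEP the step was -0.042 ± 0.041 with the block (adjusted p = 0.66). SLC2A2 (GLUT2), the low-affinity carrier of hepatocytes, was far lower, at 21.4, 32.3 and 28.6 CPM with DMSO and 36.0, 37.1 and 39.6 at 25 µM TCEP, with no overlap and adjusted p = 0.169.

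SLC2A6 (GLUT6), a carrier of inner membranes, went the other way. It read 7.71, 9.23 and 7.60 CPM with DMSO, 5.59, 4.42 and 5.91 at 25 µM TCEP and 10.7, 6.94 and 9.29 at 250 µM TCEP. The 25 µM libraries lay below all others of the TCEP series and the controls, at -0.59 ± 0.202 against DMSO (adjusted p = 0.188), and the step to 250 µM was 0.72 ± 0.139 with the block (adjusted p = 0.00555; 0.545 with no block). With TCIPP it read 9.28, 4.87 and 8.26 CPM at 2.5 µM and 9.77, 7.28 and 8.77 at 25 µM, and these groups overlapped.

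HK2, the hexokinase that traps glucose as its phosphate, read 545, 518 and 489 CPM with DMSO, 624, 809 and 610.0 at 25 µM TCEP and 485, 654 and 523.5 at 250 µM TCEP. With TCIPP it read 613, 844 and 684 CPM at 2.5 µM and 460.0, 678 and 535 at 25 µM. The lower concentrations lay above all controls, by 0.40 ± 0.154 and 0.47 ± 0.154 (adjusted p = 0.221 and 0.164), and replicate 2 stood highest in each treated group. With the block HK2 fell by 0.32 from 25 to 250 µM TCEP (adjusted p = 4.74e-04) and by 0.37 from 2.5 to 25 µM TCIPP (adjusted p = 6.73e-05). For these HK2 steps edgeR with no block gave adjusted p = 0.695 and 0.401. HK1, the housekeeping hexokinase, ran from 8.78 to 17.6 CPM over all libraries with no call with or without the block. The phosphoglucomutases PGM1 (115 to 156 CPM) and PGM2 (31.8 to 40.7 CPM), which link glucose phosphate to glycogen, had log2 fold changes between -0.13 and 0.081 against DMSO over the 4 treatments.

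Of the 7 members from glucose phosphate isomerase to triose phosphates, all 7 had a positive log2 fold change at 2.5 µM TCIPP (median 0.24) and all 7 a negative one in the step to 25 µM (median -0.20). ALDOA read 1746, 2013 and 1790.0 CPM with DMSO and 2207, 2490.0 and 2164 at 2.5 µM TCIPP, where every library lay above every control (0.31 ± 0.085, adjusted p = 0.113). ALDOC, the brain-type aldolase, read 50.2, 41.0 and 41.0 CPM with DMSO and 58.0, 62.9 and 55.1 at 2.5 µM TCIPP, again without overlap (0.41 ± 0.099, adjusted p = 0.0774). GPI, the isomerase, read 335, 387 and 343 CPM with DMSO and 400.3, 431.5 and 419.9 at 2.5 µM TCIPP (0.24 ± 0.067, adjusted p = 0.118). In these 3 genes the groups did not overlap, and the adjusted p was 0.05 or above. With the block, GPI, PFKL, ALDOA, ALDOC and TPI1 fell from 2.5 to 25 µM TCIPP, by 0.14 to 0.29 (adjusted p = 3.50e-04 for PFKL and 0.0391 for ALDOC), and PFKL and TPI1 fell from 25 to 250 µM TCEP (adjusted p = 0.0319 and 0.0493). With no block edgeR gave adjusted p = 0.241 for PFKL and 0.413 for ALDOC in the TCIPP step. In the TCEP step it gave 0.696 for PFKL and 0.695 for TPI1. PFKM, at 1.06 to 2.56 CPM, and PFKP, at 8.4 to 16.7 CPM, were called neither with no block nor with the block on treated libraries. With the block over all 15 libraries, PFKP was called higher at 2.5 µM TCIPP than with DMSO.

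PFKFB4 was the bifunctional enzyme called between concentrations. These enzymes make and remove fructose 2,6-bisphosphate, the main allosteric activator of phosphofructokinase. PFKFB4 read 87.4, 83.7 and 81.8 CPM with DMSO, 92.7, 106 and 91.7 at 25 µM TCEP and 78.1, 84.9 and 80.4 at 250 µM TCEP. With TCIPP it read 105, 111 and 109 CPM at 2.5 µM and 83.5, 100.3 and 89.4 at 25 µM. The libraries at both lower concentrations lay above all controls, and for each compound the higher concentration lay below the lower one without overlap. Over both compounds PFKFB4 fell by 0.27 ± 0.057 from the lower to the higher concentrations (adjusted p = 0.0362, edgeR with no block; 5.53e-05 with it). PFKFB3, which favours the kinase reaction, read 95.1, 73.5 and 81.7 CPM with DMSO and 70.4 to 98.8 CPM over all libraries, and its step was -0.046 ± 0.060 for TCEP and -0.038 ± 0.060 for TCIPP (adjusted p = 0.751 and 0.787 with the block). PFKFB2 (15.6 to 25.2 CPM) and PFKFB1 (0.898 to 2.95 CPM) had no call, with or without the block.

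The later steps of the pathway held the other calls. PGK1, which makes the first ATP of glycolysis, read 1020.0, 1086 and 1098 CPM with DMSO. It read 1285, 1484 and 1240.0 CPM at 25 µM TCEP and 979, 1135 and 1089 at 250 µM, and 1291, 1458 and 1308 at 2.5 µM TCIPP and 1038, 1172 and 1082 at 25 µM. Every library at a lower concentration lay above every control and above every library at a higher concentration. PGK1 fell by 0.33 ± 0.061 from the lower to the higher concentrations (adjusted p = 0.0226 with no block, 2.78e-06 with it). Against DMSO the lower concentrations were at 0.33 ± 0.087 and 0.35 ± 0.087 (adjusted p = 0.133 and 0.0875).

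ENO1, which makes phosphoenolpyruvate, read 2407, 2646 and 2514 CPM with DMSO, 2926, 3117 and 2844 at 25 µM TCEP and 2942, 3240.0 and 3108 at 2.5 µM TCIPP. At the higher concentrations it read 2513, 2635 and 2669 CPM with TCEP and 2557, 2713 and 2620.0 with TCIPP. The lower concentrations again lay above all controls and all higher ones, and ENO1 fell by 0.23 ± 0.047 between them (adjusted p = 0.0362 with no block, 5.50e-05 with it). GAPDH read 3511, 4285 and 3485 CPM with DMSO, 4448, 5118 and 4473 at 25 µM TCEP and 4777, 5611 and 5025 at 2.5 µM TCIPP. At the higher concentrations it read 3901, 4154 and 4173 CPM with TCEP and 4157, 4417 and 4026 with TCIPP. All of these lay above DMSO replicates 1 and 3, and 1 of them above replicate 2. The 6 libraries at the lower concentrations lay above all others. Its mean at 2.5 µM TCIPP was 1.37-fold that of DMSO (0.46 ± 0.092 on the log2 scale, adjusted p = 0.0544), and its step over both compounds had adjusted p = 0.0576 with no block and 6.05e-05 with it.

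ENO2, the neuronal enolase, followed ENO1 at a lower level, from 83.6 ± 14.2 CPM with DMSO to 105 ± 12.9 at 25 µM TCEP and 117 ± 17.8 at 2.5 µM TCIPP, and fell in both steps with the block (adjusted p = 0.0049 and 4.18e-04). For these ENO2 steps edgeR with no block gave adjusted p = 0.696 and 0.373. ENO3, the muscle enolase, ran opposite. It read 20.1, 20.7 and 20.2 CPM with DMSO, 17.2, 9.72 and 11.9 at 25 µM TCEP and 14.5, 11.9 and 14.9 at 2.5 µM TCIPP, with all treated libraries of these groups below the controls. Its log2 fold changes were -0.64 ± 0.208 and -0.54 ± 0.208 (adjusted p = 0.176 and 0.25). At 250 µM TCEP ENO3 read 20.5, 11.6 and 17.7 CPM and at 25 µM TCIPP 22.9, 12.7 and 16.2, and both groups overlapped the controls, with replicate 2 the lowest in each. PGAM1 (368.3 to 449.8 CPM) and PKM (1027 to 1246 CPM) stayed close to solvent, since their log2 fold changes against DMSO lay between -0.073 and 0.081. With the block PKM fell from 2.5 to 25 µM TCIPP by 0.14 (adjusted p = 0.0428; 0.556 with no block).

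In the lactate branch, LDHA, which reduces pyruvate to lactate, read 2827, 2569 and 2818 CPM with DMSO, 2921, 3290.0 and 2856 at 25 µM TCEP and 2831, 3202 and 2775 at 2.5 µM TCIPP. It read 2632, 3061 and 2677 CPM at 250 µM TCEP and 2590.0, 2992 and 2515 at 25 µM TCIPP. The 25 µM TCEP libraries lay above the controls by little and the TCIPP libraries overlapped them. With the block LDHA fell by 0.14 between the TCEP concentrations and by 0.13 between the TCIPP concentrations (adjusted p = 0.0458 and 0.0402), against adjusted p = 0.795 and 0.678 with no block.

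SLC16A3 (MCT4), the lactate exporter, was highest at 2.5 µM TCIPP. It read 413, 415.5 and 402 CPM with DMSO, 419, 420.0 and 429 at 25 µM TCEP, 417, 413 and 418 at 250 µM TCEP, 484, 498 and 473 at 2.5 µM TCIPP and 441, 422 and 433 at 25 µM TCIPP. All 3 libraries at 2.5 µM TCIPP lay above every other library (0.25 ± 0.055 against DMSO, adjusted p = 0.0611). Against DMSO, 25 µM TCEP was at 0.050 ± 0.055 (95% confidence interval -0.065 to 0.17). TCIPP at 2.5 µM and TCEP at 25 µM differ in concentration, so these values stand side by side and were not compared. SLC16A1 (MCT1), which carries lactate both ways, ran from 196 to 241 CPM with no call against DMSO. The 3 reads that a count of 0 allows over all libraries put LDHB below 0.0176 CPM, for counting error only.

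**Figure D4:**
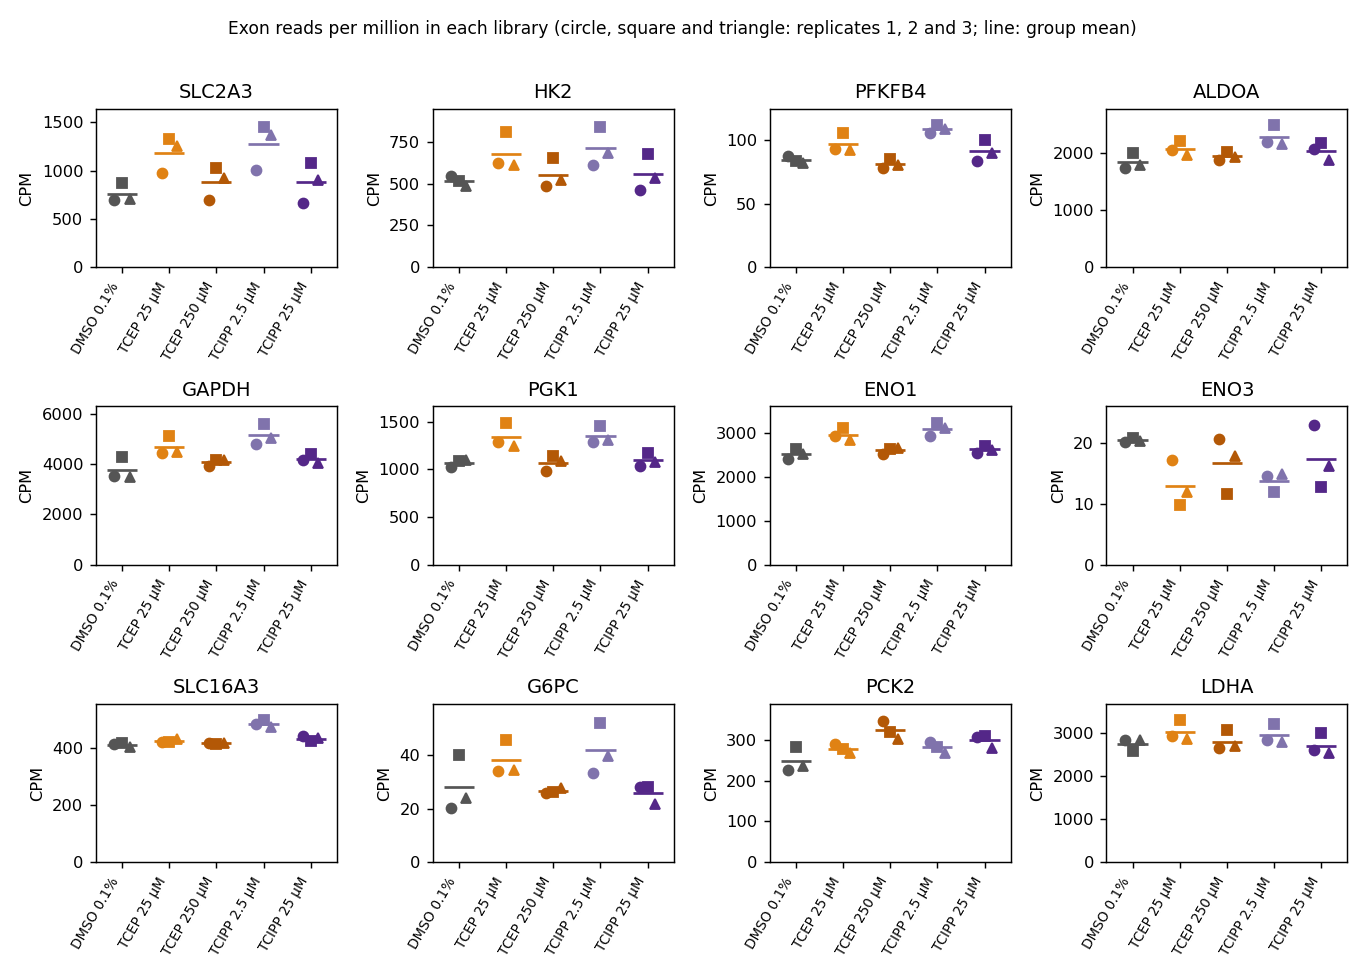
CPM of 12 members in each library by group (circle, square and triangle for replicates 1, 2 and 3; line at the mean of 3). PGK1 and ENO1 stand higher in all 6 libraries at the lower concentrations than in the other 9, and the square of replicate 2 is the highest of each treated group for SLC2A3, HK2 and PFKFB4 and the lowest for ENO3.

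The genes of gluconeogenesis did not move as one. G6PC, glucose 6-phosphatase, which frees glucose in the last step, read 20.4, 40.2 and 24.0 CPM with DMSO, 34.1, 45.6 and 34.5 at 25 µM TCEP and 25.8, 26.2 and 27.6 at 250 µM. With TCIPP it read 33.3, 52.2 and 39.8 CPM at 2.5 µM and 27.9, 28.0 and 21.7 at 25 µM. Replicate 2 of DMSO lay within the range of the lower concentrations, which therefore overlapped the controls, while all 6 libraries at the higher concentrations lay below all 6 at the lower ones. The step over both compounds was -0.61 ± 0.146 (adjusted p = 0.0512 with no block, 7.56e-05 with it). G6PC thus followed the glycolytic genes although it acts in the reverse path.

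PCK2, the mitochondrial phosphoenolpyruvate carboxykinase, read 226, 283 and 236 CPM with DMSO, 289.6, 278.5 and 267 at 25 µM TCEP and 346.5, 319.9 and 302 at 250 µM TCEP. With TCIPP it read 294, 281.5 and 268 CPM at 2.5 µM and 306, 309.7 and 279.6 at 25 µM. The 250 µM TCEP libraries lay above all controls and all 25 µM libraries, at 0.36 ± 0.083 against DMSO (adjusted p = 0.344), and the step was 0.19 ± 0.038 with the block (adjusted p = 0.00729; 0.68 with no block). PCK1, its cytosolic counterpart and a target of glucagon signalling in liver, read 102, 94.7 and 87.5 CPM with DMSO and 72.1, 74.7 and 82.2 at 250 µM TCEP, below every control (-0.32 ± 0.104, adjusted p = 0.826). The share of PCK2 in the summed RPKM of the pair ran from 73.3 to 78.7% with DMSO and from 81.9 to 85.5% at 250 µM TCEP. PC, pyruvate carboxylase, read 69.3, 73.7 and 72.2 CPM with DMSO and 65.6, 60.5 and 62.4 at 25 µM TCEP (-0.18 ± 0.102, adjusted p = 0.408), with no overlap.

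At pyruvate dehydrogenase, PDK1, a kinase that switches the enzyme off, read 101, 114 and 111 CPM with DMSO. It read 114, 149 and 128.5 CPM at 25 µM TCEP and 95.8, 124 and 113.5 at 250 µM TCEP. With TCIPP it read 111, 141.5 and 143.5 CPM at 2.5 µM and 92.5, 125 and 117 at 25 µM. The groups at 250 µM TCEP and at both TCIPP concentrations overlapped the controls. With the block PDK1 fell in each step (-0.25 ± 0.048 and -0.27 ± 0.049, adjusted p = 0.00494 and 0.00273). For these PDK1 steps edgeR with no block gave adjusted p = 0.695 and 0.475. PDK3 read 7.08, 7.49 and 6.62 CPM with DMSO and 9.09, 7.84 and 8.77 at 25 µM TCIPP, above every control (0.30 ± 0.126, adjusted p = 0.73). PDK2 (15.2 to 21.8 CPM) and PDHA1, the catalytic subunit of the dehydrogenase (78.4 to 97.1 CPM), had no call, and PDK4 lay under 0.5 CPM in the mean of every group.

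PCK2 had the smallest p of the members against DMSO at both higher concentrations, at 0.36 ± 0.083 with 250 µM TCEP and 0.26 ± 0.084 with 25 µM TCIPP. At 250 µM TCEP, PFKFB3 read 81.0, 70.4 and 76.0 CPM (-0.15 ± 0.089), SLC2A2 28.1, 31.2 and 36.2 (0.21 ± 0.146), and PC 72.1, 56.0 and 69.0 (-0.14 ± 0.103). The scarce PFKM read 2.40, 2.25 and 1.82 CPM with DMSO and 1.49, 1.06 and 1.95 at 250 µM TCEP, and PFKFB1 read 1.39, 1.37 and 1.73 and 2.17, 2.26 and 1.76. Of these 5, only PFKFB1 had every treated library above every control, and the adjusted p was 0.987 for PFKFB3 and 0.987 for PFKFB1.

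At 25 µM TCIPP, ALDOA read 2075, 2177 and 1875 CPM (0.14 ± 0.085), GPI 374, 382.5 and 383 (0.096 ± 0.067) and ALDOC 53.0, 50.1 and 46.9 (0.18 ± 0.101). PFKFB3 read 92.7, 89.3 and 90.4 CPM (0.12 ± 0.089) and PCK1 79.9, 73.2 and 90.2 (-0.22 ± 0.104). All 5 groups overlapped the controls, and for PCK2 the adjusted p was 0.575.

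At the shared concentration of 25 µM, whether glycolytic transcripts were called lower with TCIPP than with TCEP depended on the fit. The compounds differ by an added methyl branch on every chloroethyl chain of TCIPP. This was the single pair at a matched concentration, and both compounds were applied for 72 h. With no block, edgeR called 0 of 38 members (0.0398% of all genes), 11 had an unadjusted p under 0.05 (18.1% of all genes), DESeq2 called 1 (2.66%) and limma-voom 0 (0.0318%). The member median was -0.091 against -0.002 over all genes, and 6 members lay lower without overlap (9.11% of all genes) and 3 higher (11%). With the block, 13 members were called lower with TCIPP (8.59% of 12510 genes) and 5 higher (8.16%). SLC2A3 (-0.45 ± 0.044, adjusted p = 8.37e-06), PGK1 (-0.29 ± 0.044, 3.53e-04) and HK2 (-0.30 ± 0.044, 2.39e-04) had the smallest adjusted p among those lower. SLC2A6 (0.67 ± 0.147, adjusted p = 0.00505) and PFKFB3 (0.22 ± 0.061, 0.0199) were among those higher. ALDOA (-0.034 ± 0.044, adjusted p = 0.65) and PFKFB4 (-0.098 ± 0.050, 0.192) were not called with the block. With no block they were not called either, at -0.034 ± 0.084 (95% confidence interval -0.21 to 0.14) and -0.10 ± 0.081 (-0.27 to 0.070). These intervals still allow a difference of either sign. The matched concentration is the lower one used for TCEP and the higher one used for TCIPP.

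Culture replicate 2 stood apart within the treated groups. It was the highest library in all 4 treated groups for 11 of 38 members, among them SLC2A3, HK2, PFKFB4, PGK1 and LDHA. It was the lowest in all 4 for SLC2A6, PGAM1, ENO3 and PC. The share of all genes with either pattern was not counted, so these counts do not show a trait of the members. On principal component 1 over all genes tested (22.7% of the variance), replicate 2 also scored highest in each treated group. Replicate 2 of DMSO scored highest of the controls too, at -5.80 against -13.45 and -12.65 for replicates 1 and 3. With replicate 2 of every group left out, an alternative added after this was seen, edgeR called 3 members at 2.5 µM TCIPP (0.962% of all genes) and 3 in the step over both compounds (0.82%). The count in that step rests on single libraries, and so does the share of all genes called. It was 0 without replicate 2 of 25 µM TCEP (0.0632% of all genes), replicate 1 (0.0157%) or 3 (0.166%) of 250 µM TCEP, replicate 2 of 2.5 µM TCIPP (0.11%) or replicate 1 of 25 µM TCIPP (0.205%). It was 1 without replicate 3 of 2.5 µM (0.505%) or of 25 µM TCIPP (0.371%), 2 without replicate 1 of 25 µM TCEP (0.592%), 6 without replicate 1 of 2.5 µM TCIPP (2.18%) and 9 without replicate 2 of 25 µM TCIPP (2.63%). The members' median stayed between -0.18 and -0.12 in these fits. At 2.5 µM TCIPP the count went from 0 to 10 without DMSO replicate 2 (2.41% of all genes) and to 3 without replicate 1 of that group (0.92%).

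Some known HIF targets outside glycolysis fell in the same step. Of 28 tested, 4 were called lower at the higher concentrations over both compounds (edgeR with no block, 0.7% of all genes) and 0 higher (0.39%), with a median of -0.23. These were CA9, a membrane carbonic anhydrase, NDRG1, BNIP3 of mitophagy, and PPFIA4. CA9 averaged 56.9 ± 10.2 CPM with DMSO, 74.5 ± 8.53 and 86.4 ± 8.52 at 25 µM TCEP and 2.5 µM TCIPP, and 52.6 ± 8.01 and 58.8 ± 5.17 at 250 µM TCEP and 25 µM TCIPP. NDRG1 averaged 544 ± 26.7 CPM with DMSO, 692 ± 66.6 and 729 ± 103.1 at the lower and 521.5 ± 66.2 and 555 ± 78.2 at the higher concentrations of TCEP and TCIPP. The steps were -0.54 ± 0.092 for CA9, -0.41 ± 0.086 for NDRG1, -0.28 ± 0.065 for BNIP3 and -0.70 ± 0.147 for PPFIA4. With the block, 20 of the 28 were called lower (7.77% of all genes) and 1 higher (6.65%). In a separate list of 28 regulators of glucose genes the median was 0.016, with 16 above 0 and 12 below. With no block 1 of these regulators, EGLN3, was called lower (0.7% of all genes) and 0 higher (0.39%). With the block 4 of them were called lower (7.77%) and 3 higher (6.65%). EGLN3, a HIF prolyl hydroxylase that is itself HIF-induced, averaged 49 ± 5.19 CPM with DMSO, 67 ± 9.28 and 74.5 ± 13.4 at the lower and 46.4 ± 7.22 and 46 ± 7.76 at the higher concentrations of TCEP and TCIPP (step -0.63 ± 0.107, adjusted p = 0.0156, edgeR with no block). The transcript of HIF1A itself averaged 245 ± 9.7 CPM with DMSO and 202 ± 19.9, 205.5 ± 24.6, 191 ± 24.6 and 216 ± 33.2 CPM at 25 and 250 µM TCEP and 2.5 and 25 µM TCIPP. MYC (189.9 to 198.1 CPM as group means) and MLXIPL, the glucose-sensing ChREBP, at 73.3 ± 7.67 CPM with DMSO and 60.5 to 72 CPM as treated means, had no call with no block. EPAS1, which encodes HIF2A, averaged 252 ± 11.3 CPM with DMSO and 236 ± 17.7, 246 ± 11.2, 269.7 ± 6.08 and 298 ± 3.68 CPM in the same order of treatments, and 52.3% of HIF1A reads were unique.

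Neighbouring pathways gave 1 call with no block and more with it. Of 30 tested genes of glucose metabolism outside the 40, 0 were called in the step over both compounds with no block (1.09% of all genes). Of these 30, 7 had an unadjusted p under 0.05 (16.3% of all genes), and their median was 0.022. With the block 3 were higher (6.65% of all genes) and 3 lower (7.77%). BSG, the chaperone that brings lactate carriers to the membrane, was among the latter, at 435 ± 61.3 CPM with DMSO and 573 ± 54.2 CPM at 2.5 µM TCIPP. Of 10 genes of the pentose phosphate pathway, 0 were called with no block (1.09% of all genes) and 0 had an unadjusted p under 0.05 (16.3%). Their median was 0.023, and 2 were higher with the block (6.65% of all genes). SLC37A4, which carries glucose phosphate to G6PC, averaged 20.5 ± 1.93 CPM with DMSO and 18.9 to 20.8 CPM as treated means. Of 16 tested genes of glycogen metabolism 1 was called lower with no block (0.7% of all genes), and the list's median was -0.050. The called gene was PHKA2, a regulatory subunit of phosphorylase kinase (130.3 ± 1.7 CPM with DMSO, 116 ± 3.18 at 250 µM TCEP). Its step was -0.25 ± 0.044 (adjusted p = 0.0157, edgeR with no block). With the block 5 of the 16 were called lower (7.77% of all genes) and 2 higher (6.65%). Among 10 hepatocyte markers 1 was called lower in that step with no block (0.7% of all genes). It was AHSG, a secreted liver glycoprotein (5803 ± 282 and 6173 ± 393 CPM at the lower, 4929 ± 189 and 4868 ± 26.1 CPM at the higher concentrations). With the block 4 of the 10 were called lower (7.77% of all genes) and 1 higher (6.65%). ALB itself averaged 21740.0 ± 3450.0 CPM with DMSO and 15930.0 to 18890.0 CPM as treated means.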

How the data were processed

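RNA was sequenced from 15 libraries, 3 for each of 5 groups, as paired 50 bp reads of stranded poly-A libraries, per the labels' protocols. The authors mapped and counted with CLC Genomics Workbench, as the series' design text says, and the build was hg19, per the submitters' processing notes. The software's version and strand setting are not given in the sources used here. Per the file headers, the deposited tables hold whole-number read counts per gene, and the deposited RPKM values are reads per kilobase of exon per megaread. RPKM recomputed from the counts within a relative tolerance of 0.001. The authors' quantile-normalized values were not used here. Exon reads of the 57773 genes were scaled to CPM by library totals for levels. Tests used edgeR 4.0.16 (R 4.3.3) with TMM (factors 0.98 to 1.02), its quasi-likelihood test, its filter on low counts (12567 genes left, 38 of 40 members) and 1 fit over all libraries. P-values were adjusted by Benjamini-Hochberg over all genes of a comparison, with calls at 0.05. Standard errors were taken from each fold change and its F statistic. The main comparisons numbered 8. Intervals are at 95%.

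Replicate numbers were taken to pair libraries where every same-numbered correlation of deviations from group means was over 0.1. They ran from 0.0164 to 0.158 with DMSO, with at least 1 of 3 under 0.1 in each comparison. Among treated groups they ran from 0.13 to 0.297, and these were therefore also fitted with the block. The block on the treated libraries alone was not among the planned settings. The labels give the numbers but not a shared day. Principal component 1 held 22.7% of the variance.

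The members and gene lists were chosen with earlier results of these data known. Named members are the 8 of smallest p with a mean of at least 1 CPM in each comparison with DMSO, plus the levels of all others. In other lists the 3 of smallest p and some fixed genes are named (a few are not reported here), and genes called in the step over both compounds were added after their values were seen. Alternatives were DESeq2 1.42.0, limma-voom 3.58.1, other scalings, reads and filters, and leaving out libraries. In simulated data for 25 µM TCEP against DMSO (12476 genes), the test called 67 of 100 genes changed 1.5-fold, 88 of 100 changed 2-fold and 14 of 12276 unchanged ones. The simulated libraries were drawn independently, with no deviation shared by replicate number, and changes under 1.5-fold were not simulated. Reads carry no molecular identifiers, so floors and intervals of counts cover counting error only. The promoter sequences come from RefSeq, and coordinates are hg19.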

Additional observations from a re-analysis of the deposited data

Results flagged for a closer look

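Over both compounds, the effect against DMSO at the higher concentration differed from that at the lower one in 3 members by edgeR's test of the difference itself (adjusted p under 0.05 with no block). The log2 difference was -0.33 for PGK1, -0.27 for PFKFB4 and -0.23 for ENO1, and each was lower in the mean of the higher concentrations of both compounds. Every library at the higher concentrations lay below every library at the lower ones for PGK1 and ENO1, while PFKFB4 overlapped across the compounds. For each compound the median shares of intron and mitochondrial reads were also lower at the lower concentration. Only the mitochondrial share with TCIPP did not overlap between concentrations. The part of these shares in the differences was not tested.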

How the results depend on the processing

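The members' median log2 fold change kept its sign under every setting in 6 of 8 comparisons. Near 0, it ran from -0.033 to 0.033 at 250 µM TCEP and from -0.004 to 0.052 at 25 µM TCIPP against DMSO. It moved by more than 0.052, the spread between replicates, with limma-voom on quantile-normalized values, to -0.073 for the TCEP step, -0.11 for the TCIPP step and -0.093 over both. Leaving out 1 library took it from 0.064 (without replicate 2 of that group) to 0.14 at 25 µM TCEP, from -0.20 to -0.13 for the TCIPP step and from -0.15 to -0.063 for TCIPP against TCEP at 25 µM.

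Counts of called members depended on the test. In the order 25 µM TCEP, 250 µM TCEP and 2.5 µM TCIPP against DMSO, TCEP step, TCIPP step, TCIPP against TCEP, and the step over both compounds, edgeR gave 0, 0, 0, 0, 0, 0 and 3. DESeq2 gave 3, 1, 11, 1, 3, 1 and 9, and edgeR with no filter on low counts gave 8, 1, 11, 5, 6, 6 and 14. At 2.5 µM TCIPP the count was 1 with library totals (0.279% of all genes called), 4 with limma-voom (0.828%), 2 with limma-voom on quantile-normalized values (0.899%), 4 with unique reads (1.03%), 1 with only the groups compared (0.19%), and 3 without replicate 2 of every group (0.962%). At 25 µM TCEP it was 1 with only the groups compared (1.1%). For the step over both compounds it was 5 with limma-voom (1.5%) and 5 with unique reads (1.79%). Leaving out 1 library gave 0 to 10 at 2.5 µM TCIPP and 0 to 9 for the step over both. The cause of these differences was not tested.

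With the replicate block on all 15 libraries the counts were 11, 1, 17, 7, 11, 10 and 18 in the same order, although the correlation of same-numbered treated and control libraries was not over 0.1 throughout. With the block on the treated libraries only they were 14, 19, 18 and 24 for the last 4. At 25 µM TCIPP against DMSO the count was 0 under every setting, the block included.

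Among single members, 6 recomputed values changed sign and 1288 kept direction and call, 163 newly passed and 23 no longer passed. The sign changes were all for TCIPP against TCEP at 25 µM in genes that were not called. ALDOA went from -0.034 to 0.044 with limma-voom on quantile-normalized values, and leaving out 1 library gave -0.088 to 0.033 (0.019 without 25 µM TCEP replicate 2). ALDOC went from -0.052 to 0.026 without replicate 2 of every group, and leaving out 1 library gave -0.11 to 0.032 (0.005 without 25 µM TCIPP replicate 3). The lowest library, at 5.35 megareads, limits members under about 1 CPM.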

Other observations

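Outside the 40 members, the genes whose level was most like the mean of the 18 glycolytic enzymes over the 15 libraries were PPL, PLOD1, ERGIC1, F10, C4B, AXIN1, ITGB5, SERPIND1, SLC5A6 and TFF3, with Pearson's r of 0.917 to 0.941, a description over libraries that share depth and groups. PLOD1, a collagen lysyl hydroxylase on the HIF list, averaged 319 ± 21.3 CPM with DMSO, 391 ± 47.7 and 410.2 ± 52.4 at 25 µM TCEP and 2.5 µM TCIPP, and 329.5 ± 21.8 and 321 ± 37.4 at 250 µM TCEP and 25 µM TCIPP. F10, coagulation factor X, averaged 103 ± 11.4 CPM with DMSO, 126 ± 8.65 and 129.5 ± 11.3 at the lower and 103 ± 3.15 and 107 ± 13.5 at the higher concentrations. TFF3, a trefoil peptide of mucosal surfaces, averaged 3.97 ± 1.12 CPM with DMSO, 6.18 ± 0.963 and 7.14 ± 1.43 at the lower and 4.27 ± 0.299 and 4.36 ± 0.47 at the higher concentrations. C4B and SERPIND1 had 7.85% and 26.4% unique reads, so near-identical copies may share theirs. Among members outside that mean, G6PC (0.864), PFKFB4 (0.891) and PDK2 (0.786) were the most like it, and SLC2A6 (-0.62) and PFKFB2 (-0.60) the least.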
